A study of Mus musculus with 8 samples.

Results

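RNA immunoprecipitation (RIP) with an antibody against CaMKIIβ was set against the RNA of the Input, which had not been immunoprecipitated, in brain tissue of C57BL/6 mice that the labels give as hippocampus. The comparison used the 3 CaMKIIβ RIP libraries and the 2 Input libraries, which are 5 of the 8 libraries of the series. The 3 libraries left, made with control IgG from the same strain and tissue, gave values beside those of the CaMKIIβ antibody and entered 1 alternative fit. Of 55401 genes in the table of raw counts, 22095 passed a single filter on low counts and were tested, and 16850 of these had a RefSeq name. No age, sex, treatment or genotype is given for any group. Nothing in the labels says that libraries of a group came from separate animals, so p-values measure the spread between these libraries, which may be technical. The question put by the comparison is which transcripts made up a larger or a smaller share of the RNA after immunoprecipitation than in the tissue RNA.

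In a RIP experiment an antibody on beads pulls a protein from a lysate, and the RNA that stays on the beads is sequenced. CaMKIIβ, the product of Camk2b, belongs to the kinase CaMKII, a holoenzyme that is abundant at excitatory synapses, binds actin through its β subunit and is activated by calcium-loaded calmodulin. Input is the reference for abundance, whereas control IgG is the reference for RNA that sticks to beads and antibody. Levels below are CPM, counts brought to one library size with TMM (which takes most genes to be alike between libraries), so a difference in the total RNA recovered cannot be seen.

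The 5 libraries held 17273957 to 25299903 counts. CaMKIIβ RIP replicate 2 stood apart: 3981 of the tested genes (18.02%) had no count in it, against 314 and 767 in replicates 1 and 3 and at most 14 in the Input libraries. Pearson correlations of log2 CPM were taken over the 10981 tested genes whose average log2 CPM reached 3, which leaves out the rarer genes. They were 0.945 and 0.927 between replicate 2 and replicates 1 and 3, 0.973 between replicates 1 and 3, and 0.995 between the Input libraries. The biological coefficient of variation, edgeR's measure of the spread between libraries of a group, was 0.477 with all 5 libraries and 0.234 without replicate 2. Transcripts of the cerebellum were abundant in all 5 libraries although the tissue is labelled hippocampus. Cbln1, a synapse organizer secreted by cerebellar granule cells, was at 586, 484 and 458 CPM in CaMKIIβ RIP replicates 1, 2 and 3 and at 446 and 400.4 CPM in Input. All 14 cerebellar granule cell markers and all 19 hippocampal and telencephalic markers that were tested had counts in every one of these libraries. Cell types named below are therefore those of the marker lists, not of a known tissue.

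After immunoprecipitation 1117 of 22095 genes were higher than in Input (5.06%) and 751 were lower (3.4%), at a Benjamini-Hochberg adjusted p under 0.05 in edgeR's quasi-likelihood test. The median log2 fold change was 0.82 among the higher genes and -1.001 among the lower, and 288 and 376 of them changed at least 2-fold. Over all genes tested the median was -0.12. Scaling by library size alone moved that median to -0.29 and the counts to 683 higher and 1361 lower. In all 1868 called genes the CaMKIIβ RIP libraries lay on one side of both Input libraries. Over all tested genes, 18.9% had every CaMKIIβ RIP library above both Input libraries and 28.5% had every one below. When CaMKIIβ RIP replicate 2 was left out, 2471 genes were called higher (11.3%) and 1618 lower (7.39%) of 21901, among them all 1117 of the higher and 736 of the 751 lower genes. Without CaMKIIβ RIP replicate 1 edgeR called 0 genes, with 4607 at an unadjusted p under 0.05 and a smallest adjusted p of 0.0709. All 1868 genes kept their sign, but with groups that did not overlap this could hardly have come out otherwise. Without Input replicate 1 the counts were 461 higher and 384 lower, and without Input replicate 2 they were 256 and 144.

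The control antibody, set against the same 2 Input libraries, gave 4483 higher genes (20.1%) and 4170 lower (18.7%) of 22342. Because the Input libraries are shared, the values of CaMKIIβ RIP and IgG RIP against Input are not independent and are given side by side only. Between CaMKIIβ RIP and IgG RIP themselves edgeR called 0 of 20566 genes (0.0%), with 721 at an unadjusted p under 0.05 and a smallest adjusted p of 0.982. That fit held CaMKIIβ RIP replicate 2 and was not repeated without it, so the lack of calls does not show that the antibodies were alike. The fit of IgG RIP against Input does not hold that library, so its larger number of calls does not measure a stronger pulldown. For 1768 of the 1867 called genes that were also tested between the antibodies, the 95% interval of that difference lay within 2-fold on both sides, against 10691 of all 20566 tested genes (52.0%). Calls favour genes with many counts and with little spread in the same CaMKIIβ RIP libraries. Narrow intervals among called genes were therefore largely set in advance, and their share is no test of likeness between the antibodies. The changes below are changes against Input, and a difference between the antibodies was not detected for any of them.

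**Figure D1:**
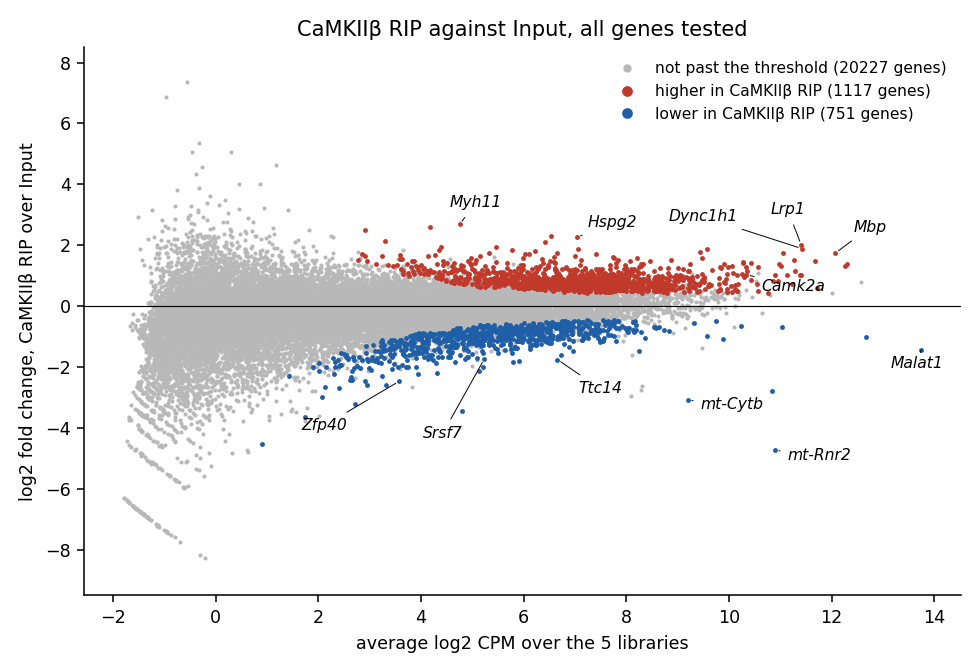
Log2 fold change of CaMKIIβ RIP (3 libraries) over Input (2 libraries) against the average log2 CPM over the 5 libraries, 1 point for each of 22095 genes. The 1117 higher genes are in red and the 751 lower in blue, and genes of low abundance spread widely without passing the threshold.

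Of the 4 transcripts of the kinase itself 2 were higher and 1 was lower. Camk2a, which encodes the α subunit and is a textbook dendritic mRNA, was at 1729, 1376 and 1788 CPM in CaMKIIβ RIP replicates 1, 2 and 3 and at 839 and 751 CPM in Input. Every RIP library lay above both Input libraries, and the log2 fold change was 1.04 ± 0.14 (SE; adjusted p 0.00954). Camk2b (ENSMUSG00000057897.14, GRCm38 chromosome 11, 5969644 to 6066362), the transcript of the precipitated protein, was at 1126, 895 and 1061 CPM against 709 and 718 CPM. Its rise of 0.53 ± 0.12 was close to the threshold (adjusted p 0.0425), with 0.62 ± 0.06 in IgG RIP over Input. Camk2d (ENSMUSG00000053819.16, GRCm38 chromosome 3, 126596302 to 126846326), the δ subunit, went the other way at 153, 159.5 and 174 CPM against 219 and 229 CPM, a log2 fold change of -0.47 ± 0.11 (adjusted p 0.044). The calls of Camk2b and Camk2d were lost without CaMKIIβ RIP replicate 1 and without either Input library. That of Camk2d was also lost under RLE (adjusted p 0.056) and upper quartile scaling (0.0539), and that of Camk2b under library size scaling (0.0924) and without replicate 3 (0.0848). The groups did not overlap for any of the 4 subunits, but Camk2g, the γ subunit, did not pass the test at 0.40 ± 0.12 (adjusted p 0.0941). Among 15 genes of CaMKII inhibitors, calmodulin and phosphatases 1 was higher and 2 were lower. Ppp1r9b, encoding the spine protein spinophilin that holds protein phosphatase 1 at F-actin, rose by 1.33 ± 0.19. Calm2, one of the genes for calmodulin, was at 333, 335 and 328 CPM in CaMKIIβ RIP and 567 and 571 CPM in Input, a fold change of -0.78 ± 0.09 (adjusted p 0.00729). Its values were nearly equal within each group. Calm3, which encodes the identical protein, did not pass the test, at 0.42 ± 0.12. Ppp2ca, the catalytic subunit of protein phosphatase 2A, fell, with a log2 fold change of -0.67 ± 0.14.

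**Figure D2:**
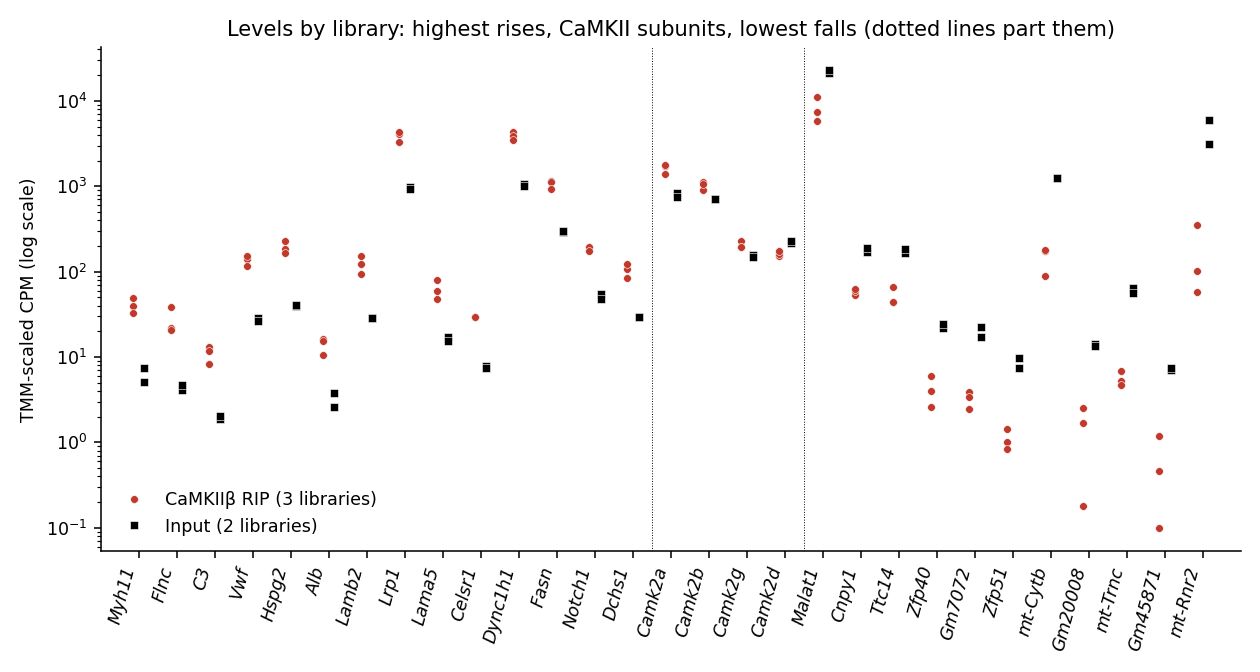
TMM-scaled CPM on a log axis in each CaMKIIβ RIP library (red circles) and each Input library (black squares) for the highest rises, the CaMKII subunits and the lowest falls, 6 genes without a RefSeq name left out. Each gene's red points lie on one side of its black points, and Lrp1 stands at 3328 to 4262 CPM in the RIP libraries against 934 and 991 in Input.

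Among the largest rises were genes of vessels and their basement membrane, the sheet of laminins, type IV collagen and proteoglycans under endothelium. Of 29 collagen, laminin and basement membrane genes 18 were higher and 0 lower, with a median log2 fold change of 0.96, against -0.12 over all genes. Without replicate 2 the count was 23, and in IgG RIP over Input 27 were higher and 0 lower. Hspg2 (ENSMUSG00000028763.18, GRCm38 chromosome 4, 137468769 to 137570630), encoding perlecan, was at 184, 227 and 166 CPM in CaMKIIβ RIP and 40.03 and 40.3 CPM in Input. It was thus highest in replicate 2 and far above Input in all, at 2.26 ± 0.17 (adjusted p 0.00275) and 2.13 ± 0.08 with IgG. Lamb2 (ENSMUSG00000052911.9, GRCm38 chromosome 9, 108479736 to 108490530), the laminin β2 chain, was at 123, 152 and 94.5 CPM against 28.97 and 28.6 CPM, a log2 fold change of 2.098 ± 0.22 (adjusted p 0.00533). Lama5 followed at 1.93 ± 0.25, and Fn1, encoding fibronectin, at 1.71 ± 0.15. The other members that rose were Lamc3, Col1a1, Nid2, Lama2, Col1a2, Lama1, Lama4, Col3a1, Lamc1, Col4a1, Nid1, Col18a1, Agrn and Lamb1, from 1.67 down to 0.74.

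Among called genes the highest log2 fold changes were those of Myh11 and Flnc. Myh11 (ENSMUSG00000018830.10, GRCm38 chromosome 16, 14194535 to 14291372), the myosin heavy chain of smooth muscle, had 39.8, 32.8 and 49.4 CPM in CaMKIIβ RIP and 5.11 and 7.43 CPM in Input. That is a log2 fold change of 2.69 ± 0.28 (adjusted p 0.00542), with 2.74 ± 0.17 in IgG RIP. Flnc (ENSMUSG00000068699.12, GRCm38 chromosome 6, 29433256 to 29461883), encoding the muscle actin crosslinker filamin C, was at 21.7, 38.2 and 20.8 CPM against 4.11 and 4.68 CPM, and its rise of 2.61 ± 0.35 was largest in replicate 2. Vwf (ENSMUSG00000001930.17, GRCm38 chromosome 6, 125546774 to 125686679), the von Willebrand factor made by endothelium, was at 141, 154 and 115 CPM against 28.5 and 26.4 CPM, a change of 2.32 ± 0.17 (adjusted p 0.00275). Alb, the plasma protein albumin made mainly in liver, rose by 2.15 ± 0.35 from 3.74 and 2.62 CPM. C3, the central complement component, rose by 2.495 ± 0.37 from 1.9 and 2.01 CPM. Of 14 smooth muscle and pericyte markers 6 were higher, and 1, the pericyte regulator Rgs5, was lower at -0.81 ± 0.20. Of 13 endothelial markers 4 were higher and 0 lower (Vwf, Tie1, Kdr and Slc2a1). The summed level of the 14 smooth muscle and pericyte markers was 592 to 617 CPM in CaMKIIβ RIP and 337 and 347 CPM in Input, and that of the endothelial markers 501 to 566 and 347 CPM in both Input libraries. In summed CPM the members called higher held both rises, in a split made by the calls in these same data. The other 8 smooth muscle and pericyte markers summed to 77 to 126 CPM against 134 and 137 CPM, and the other 9 endothelial markers to 223 to 238 against 213 and 222 CPM. Those 8 include Rgs5, which was called lower, so their sum does not show that the uncalled members fell. By sign, 13 of the 14 smooth muscle and pericyte markers and 9 of the 13 endothelial markers had a positive log2 fold change. In RNA from bulk tissue, more or fewer cells of a type and more or less RNA per cell cannot be told apart, and the part of vascular cells in these changes was not tested.

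Genes of several families of large cell-surface receptors were among the higher genes. Of 14 lipoprotein receptor family genes, which encode endocytic receptors for lipoproteins and proteases and coreceptors for Wnt, 9 were higher and 0 lower, with a median of 0.75. Lrp1 (ENSMUSG00000040249.15, GRCm38 chromosome 10, 127538161 to 127621148), a multi-ligand endocytic receptor, was at 4069, 4262 and 3328 CPM in CaMKIIβ RIP and 991 and 934 CPM in Input. Every RIP library lay far above both Input libraries, a log2 fold change of 2.01 ± 0.13 (adjusted p 0.00275; 1.95 ± 0.07 with IgG). Sorl1, the sorting receptor SORLA, was at 2856, 2919 and 2249 CPM against 1068 and 992 CPM, a change of 1.38 ± 0.14. Lrp4, Lrp5, Lrp10, Lrp3, Lrp11 and Lrp6 also rose, from 1.62 to 0.47, while the reelin receptor gene Lrp8 did not pass at 0.17 ± 0.11. The ligand itself, Reln, rose by 1.46 ± 0.14, from 623 and 588 CPM in Input to 1839.8, 1761 and 1414 CPM.

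Notch receptors, which release a transcription regulator on contact with a ligand on a neighbouring cell, gave 3 higher genes of 8 receptors and ligands, with a median of 1.01. Notch1 (ENSMUSG00000026923.15, GRCm38 chromosome 2, 26457903 to 26516663) was at 193, 194 and 173 CPM against 54.8 and 47.8 CPM, a change of 1.86 ± 0.13 (adjusted p 0.00275). Notch2 and Notch3 rose by 1.66 ± 0.12 and 1.43 ± 0.17. Notch4 lay above Input in every RIP library and did not pass at 1.11 ± 0.29 (adjusted p 0.0593). Of 19 atypical cadherins, teneurins and adhesion receptors, very long proteins of cell contact and planar polarity, 11 were higher and 0 lower (median 0.84). Celsr1 (ENSMUSG00000016028.11, GRCm38 chromosome 15, 85898929 to 86034203) was nearly equal in the RIP libraries at 29.3, 29.8 and 29.3 CPM, against 7.9 and 7.52 CPM, a change of 1.93 ± 0.20. Dchs1 rose by 1.82 ± 0.19, and Fat2, a protocadherin of cerebellar granule cells, by 1.47 ± 0.12 from 1639 and 1533 CPM to 4847, 4401 and 3901 CPM. Of 29 plexins and semaphorins, receptors and ligands of axon guidance, 12 were higher and 0 lower, and Plxnb1 led at 1.42 ± 0.11. Of 9 adenylyl cyclases, which make cyclic AMP, 5 were higher and 0 lower, from Adcy5 at 0.91 ± 0.18 to Adcy1 and Adcy2 at 0.60 and 0.60. Adcy1, the calmodulin-stimulated isoform, was at 3781, 4246 and 3600.2 CPM against 2554 and 2577 CPM.

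Genes of the skeleton beneath the cell membrane were also among them. Of 15 spectrins, ankyrins and plakins 12 were higher and 0 lower, and the count was again 12 without replicate 2. Plec, encoding the cytolinker plectin, was at 1002, 1058 and 845 CPM against 277 and 285 CPM, a log2 fold change of 1.79 ± 0.13 (adjusted p 0.00275). Every RIP library lay far above both Input libraries. Sptbn1 and Sptan1, the widely expressed β-II and α-II spectrins, rose by 1.31 ± 0.13 and 1.04 ± 0.11. Ank2 and Ank3, adaptors between spectrin and ion channels of the axon, rose by 0.73 ± 0.13 and 0.72 ± 0.14, with 0.95 ± 0.06 and 0.96 ± 0.06 in IgG RIP over Input. Among 33 genes of microtubule and actin motors 14 were higher and 2 lower. Dync1h1 (ENSMUSG00000018707.13, GRCm38 chromosome 12, 110601452 to 110666945), the heavy chain of cytoplasmic dynein, was at 4320.3, 3852 and 3459 CPM in CaMKIIβ RIP and 1075 and 1019 CPM in Input, a change of 1.89 ± 0.12 (adjusted p 0.00275). Paralogs inside the group parted. Dync1i1, the neuronal intermediate chain, rose by 0.56 ± 0.13, whereas Dync1i2, the ubiquitous one, fell from 119.7 and 114 CPM to 59.7, 68.1 and 75.1 CPM, a change of -0.79 ± 0.14. In the same way Kif5a, the neuronal kinesin heavy chain, rose by 0.49 ± 0.10, and Kif5b, the ubiquitous one, had 167, 188 and 183 CPM against 259 and 271 CPM, a change of -0.56 ± 0.11. Kif1a, the motor of synaptic vesicle precursors, rose by 1.51 ± 0.13, and Myo5a by 1.41 ± 0.11.

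Enzymes of lipid synthesis gave 11 higher and 1 lower of 32 fatty acid and sterol genes, with a median of 0.12 that turned to -0.05 when only library size was used for scaling. Fasn (ENSMUSG00000025153.9, GRCm38 chromosome 11, 120805846 to 120824547), fatty acid synthase, was at 1163, 1129 and 940.4 CPM against 293 and 297 CPM, a log2 fold change of 1.87 ± 0.13 (adjusted p 0.00275). All 3 RIP values lay far above both Input values. Acacb and Acaca, the acetyl-CoA carboxylases that feed it, rose by 1.39 ± 0.21 and 0.91 ± 0.13. Srebf2 and Srebf1, the transcription factors of sterol and fatty acid synthesis, rose by 1.13 ± 0.15 and 1.03 ± 0.19. The exception was Elovl6, an elongase of long-chain fatty acids, which fell, with 77.6, 80.4 and 71.5 CPM against 109.8 and 116 CPM (-0.56 ± 0.12, adjusted p 0.0342).

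Genes called among the receptors for glutamate were higher, and those among the GABA-A receptors lower. Of 25 glutamate receptor genes 8 were higher and 0 lower (median 0.45, 18 of 25 positive), and of 13 GABA-A receptor subunits 0 were higher and 7 lower (median -0.71). With IgG the counts were 16 higher and 4 lower, and 1 higher and 8 lower. DESeq2, limma-voom and library size scaling each called 3 glutamate receptor genes lower. Grin1, the obligatory NMDA receptor subunit, was at 533, 486 and 519 CPM in CaMKIIβ RIP against 291 and 252 CPM in Input, a log2 fold change of 0.92 ± 0.11 (adjusted p 0.00814). The regulatory subunit genes Grin2a and Grin2b overlapped with Input and did not pass (-0.05 ± 0.13 and 0.29 ± 0.15). Gria1 rose by 0.55 ± 0.12, while Gria2, the AMPA receptor subunit that limits calcium entry, lay below Input in every RIP library and did not pass at -0.87 ± 0.24 (adjusted p 0.067). Gabrb2, the β2 subunit, was at 178, 212 and 207 CPM against 327 and 330.3 CPM, a change of -0.73 ± 0.12 (adjusted p 0.0144; -0.59 ± 0.08 with IgG). The granule cell subunit gene Gabra6 was at 187, 261 and 261 CPM against 425 and 426 CPM (-0.85 ± 0.16). Both genes lay below Input in every RIP library. Gabra2 and Gabra4 also fell, at -1.13 ± 0.27 and -0.74 ± 0.17, whereas Gabrd, of extrasynaptic receptors, overlapped with Input at 0.20 ± 0.27. A test of the difference between the receptor families was not made.

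Of 19 postsynaptic scaffold genes 6 were higher and 0 lower, all of them Shank, SAPAP or synaptopodin genes, with Shank3 at 694, 742 and 704 CPM against 327 and 289.7 CPM (1.21 ± 0.11). Of 21 active zone genes 7 were higher and 0 lower, led by Bsn (bassoon) at 1.28 ± 0.09 and Ptprf at 1.19 ± 0.12. Their median was 0.13, and -0.04 when scaled by library size alone. Of 32 synaptic vesicle and SNARE genes 4 were higher and 3 lower. The fallers were Snap25, a SNARE of the plasma membrane (1110.3, 821 and 1027 CPM against 1566 and 1502 CPM, -0.64 ± 0.14), Syt4 and Synpr, the last at -1.21 ± 0.19. Voltage-gated calcium channels gave 6 higher and 2 lower of 15. The T-type pore genes Cacna1h, Cacna1i and Cacna1g rose, from 0.91 to 0.85, and the auxiliary subunit genes Cacnb4 and Cacna2d1 fell, at -0.85 ± 0.11 and -0.74 ± 0.17. Of 39 potassium channel genes 6 were higher and 1 lower, and Kcnh2 and Kcnh7 of the same ether-a-go-go-related family took opposite signs at 1.08 ± 0.17 and -0.64 ± 0.15. Of 8 voltage-gated sodium channel genes 0 passed the threshold in either direction, 3 were higher without replicate 2, and 3 were higher and 1 lower with IgG. These lists were not set against genes of like abundance. Protein-coding genes at log2 CPM 5 or more on average were put in 10 bins of exon length. Their share higher ran from 9.14% to 21.15%, and the bin medians from 0.04 to 0.23. The medians of the active zone (0.13), vesicle and SNARE (0.16), potassium channel (0.12) and sodium channel (0.09) lists lay within that range. Those of the postsynaptic scaffold (0.44) and calcium channel (0.45) lists lay above it. Bins by the number of separate exon blocks gave another reference. Calcium channel genes had a median of 40 blocks, and genes above 30 blocks at that abundance had a median of 0.39, close to that list. Postsynaptic scaffold genes had a median of 23 blocks, and genes with 21 to 30 blocks had a median of 0.19.

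Of 36 chromatin regulators with long messages 13 were higher and 0 lower, with a median of 0.40. The list was limited to long messages, and its genes had a median of 35 separate exon blocks. Protein-coding genes with more than 30 blocks and average log2 CPM of at least 5 had a median of 0.39, with 37.5% higher. The values of the list are thus close to those of many-exon genes of any kind. Ubr4, a giant ubiquitin ligase of that list, was at 1365, 1426 and 1038 CPM against 497 and 484 CPM (1.38 ± 0.15), and Trrap, the scaffold of histone acetyltransferase complexes, rose by 1.25 ± 0.14. Also higher were Smarca2, Kmt2d, Smarca4, Chd5, Chd4, Arid1b, Huwe1, Arid1a, Kmt2b and Tet3, from 0.81 to 0.54.

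Among glial markers, 7 of 11 astrocyte genes were higher and 0 lower (median 0.94), and the summed level of the 11 was 10962 to 12935 CPM in CaMKIIβ RIP against 5967 and 6194 in Input. The 4 not called summed to 2369.7 to 3772 CPM against 1835 and 1967 CPM. Slc1a2, the astrocytic glutamate transporter, was at 7054, 5903 and 6492 CPM against 2592 and 2561 CPM, a change of 1.33 ± 0.11 (adjusted p 0.00318). Gfap, the intermediate filament of astrocytes, rose by 1.09 ± 0.12. Of 15 oligodendrocyte lineage markers 5 were higher and 1 lower. Mbp, myelin basic protein, whose mRNA is carried into myelin processes, was at 6080.2, 6529 and 5371 CPM against 1839.9 and 1742 CPM (1.74 ± 0.11; 1.79 ± 0.06 with IgG). Mobp, which encodes another basic protein of myelin, was at 1716, 1397 and 1947 CPM against 689 and 693 CPM (1.29 ± 0.15). Mog, of the outer myelin surface, had 51.3, 62.7 and 37.4 CPM against 77.3 and 90.2 CPM and did not pass at -0.73 ± 0.22 (adjusted p 0.0886). Of 14 microglia and complement markers 3 were higher (C3, C4b and Csf1r) and 0 lower. Of 12 choroid plexus and ependymal markers 0 passed, with a median of -0.04 that was 0.00 under RLE scaling, and in IgG RIP over Input 2 were higher and 2 lower.

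Neuronal markers were mixed within each cell type. Of 14 cerebellar granule cell markers 4 were higher (Fat2, Reln, Grin2c and Zic2) and 2 lower (Gabra6 and Etv1). Their summed level was 8764 to 9917 CPM in CaMKIIβ RIP and 5590.4 and 5802 in Input. The 4 higher genes held that rise. The other 10, set apart by the calls in these same data, summed to 2504 to 2823 CPM against 3081 and 3138 CPM. Of 14 Purkinje and Bergmann cell markers 3 were higher and 3 lower. Itpr1, the IP3 receptor of Purkinje cells, was at 7202, 6703 and 6041 CPM against 2547 and 2599 CPM (1.37 ± 0.11), whereas Car8, a protein that binds that receptor, was at 560.1, 488 and 571 CPM against 808 and 770.4 CPM (-0.55 ± 0.11). Calb1, a calcium buffer of Purkinje cells and of dentate granule cells, fell from 492 and 487 CPM to 271, 327 and 315 CPM (-0.68 ± 0.11). Of 19 hippocampal and telencephalic markers 2 were higher (Bcl11b and Wfs1) and 1, Calb1, lower, and the summed level was 1291 to 1409 CPM against 1422 and 1431. Of 14 inhibitory neuron markers 3 were higher and 2, Gad2 and Pvalb, lower. The part of cell composition in these values was not tested.

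**Figure D3:**
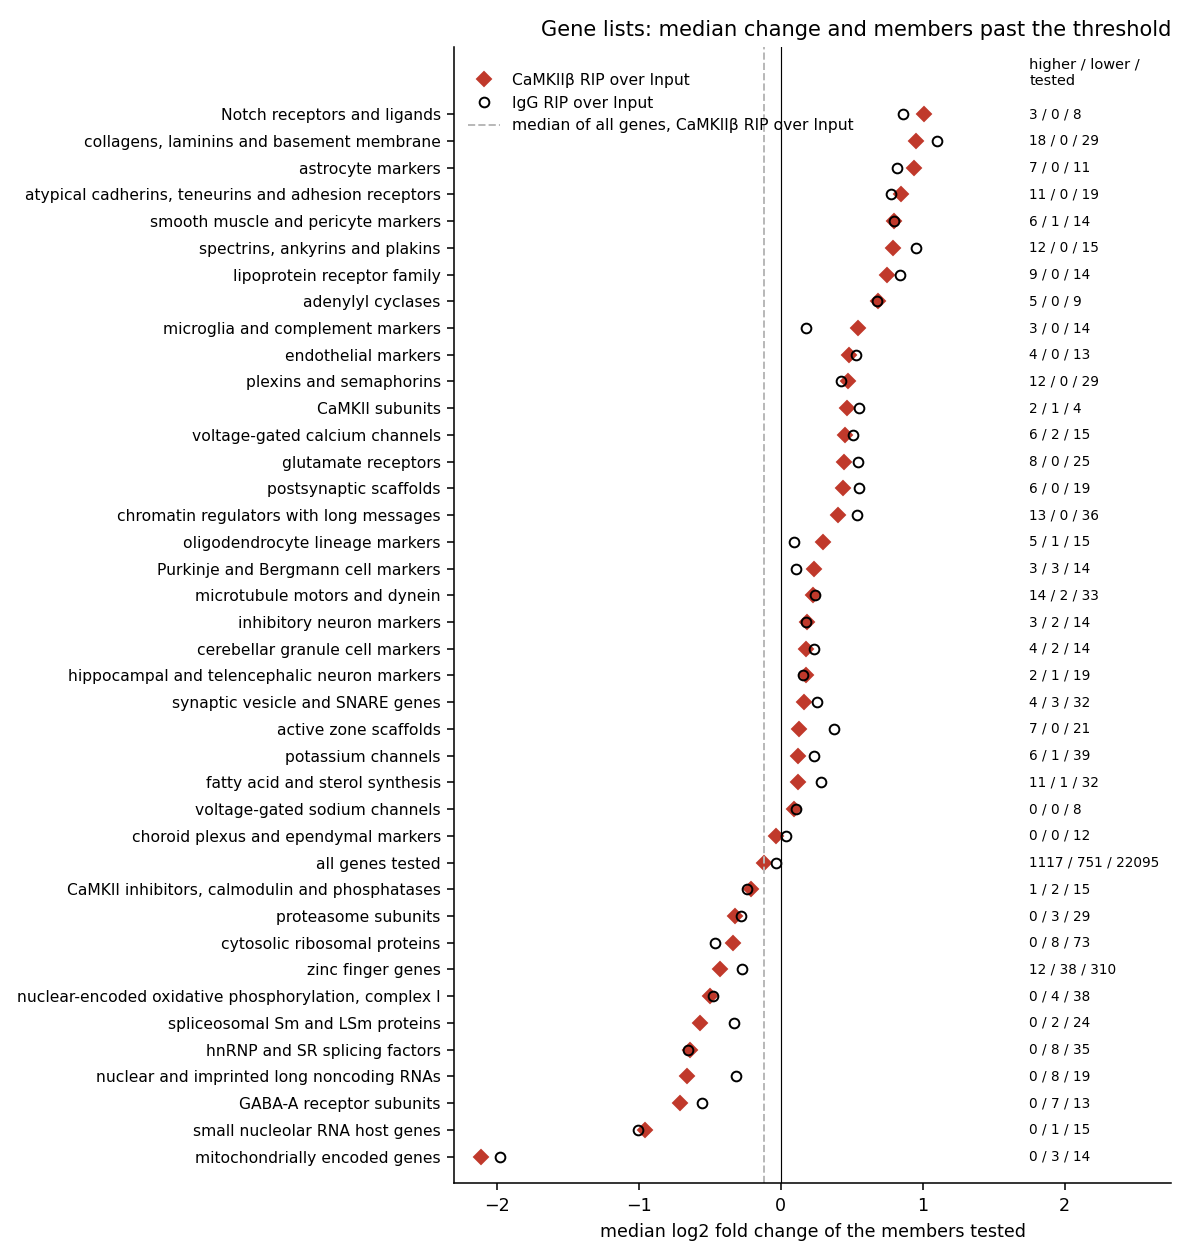
Median log2 fold change over Input of the tested members of each gene list, with CaMKIIβ RIP as red diamonds and IgG RIP as open circles, and the members higher and lower in CaMKIIβ RIP and tested printed at the right. The basement membrane list lies at 0.96 for CaMKIIβ RIP and 1.1 for IgG RIP, and the mitochondrially encoded list at -2.12 and -1.98, the lowest of those shown.

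RNA made in mitochondria held several of the deepest falls. Mitochondrial transcripts held 0.648%, 0.36% and 0.656% of counts in CaMKIIβ RIP replicates 1, 2 and 3 and 1.92% and 2.08% in Input. A list of 15 mitochondrially encoded genes, which is not all of them, had 14 tested. Of these, 3 were lower and 0 higher, with a median of -2.12. By library the median log2 ratio to the Input mean was -2.29, -3.78 and -1.15, so replicate 2 lay lowest. mt-Rnr2, the large mitochondrial ribosomal RNA, was at 57.1, 102 and 349 CPM in CaMKIIβ RIP and 3094 and 5952 CPM in Input. Its values spread widely in both groups without overlap, at -4.74 ± 0.73 (adjusted p 0.0132). mt-Cytb, cytochrome b, was at 174, 89.8 and 178 CPM against 1241 and 1259 CPM, a change of -3.08 ± 0.27 (adjusted p 0.00399; -2.21 ± 0.06 with IgG). mt-Co1, cytochrome oxidase subunit 1, fell by less, to 6039.8, 3366 and 4463 CPM from 9978 and 8790.2 CPM (-1.02 ± 0.22). The mitochondrial tRNA gene mt-Trnc, outside that list, was also lower, at 5.27, 6.82 and 4.72 CPM against 65.04 and 56.9 CPM (-3.45 ± 0.22). mt-Nd1, a complex I subunit, was at 118, 13.2 and 152 CPM against 574 and 698 CPM and did not pass with replicate 2 in the fit (adjusted p 0.0718). Without replicate 2, 7 of the 14 were lower. Reads of mitochondrial genes can also come from nuclear copies, and how reads with several positions were counted is not given in the sources used here.

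Messages for splicing factors were on the lower side. Of 35 hnRNP and SR genes 8 were lower and 0 higher, with a median of -0.64, and 33 of the 35 had a negative log2 fold change. With IgG 29 were lower and 2 higher. Srsf7, an SR protein that also exports mRNA, was at 15.2, 18.8 and 24.04 CPM in CaMKIIβ RIP against 64.04 and 65.2 CPM in Input, a change of -1.74 ± 0.21 (adjusted p 0.00771). Srsf6 was at 29.99, 36.9 and 37.6 CPM against 84.6 and 95.9 CPM (-1.37 ± 0.16), and Srsf3, Srsf10, Tra2b, Hnrnpll, Srrm1 and Hnrnpu fell by 1.22 down to 0.64 on the log2 scale. Many SR genes also make isoforms with poison exons or detained introns, which counts per gene do not separate. Hnrnpa2b1 differed widely among all 3 RIP libraries, with 152, 69.3 and 326 CPM against 340.3 and 366 CPM, and did not pass (-0.95 ± 0.52). Under RLE scaling 5 and under library size scaling 13 of the 35 were lower.

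In several housekeeping complexes the called genes were lower. Of 24 spliceosomal Sm and LSm genes 2 were lower (Snrpe at -2.12 ± 0.38 and Snrpa1 at -1.47 ± 0.28), of 38 complex I genes 4, of 73 cytosolic ribosomal protein genes 8 and of 29 proteasome genes 3, with 0 higher in each list. Medians were -0.57, -0.50, -0.34 and -0.33. Other housekeeping lists differed from these: 1 of 68 mitochondrial ribosomal protein genes was lower (median -0.32), a smaller share than the 3.4% of all genes. Of 17 V-ATPase subunits 1 was lower (median -0.004), and of 45 translation factors 4 were higher and 5 lower (median -0.05). Rps27a, which encodes ubiquitin fused to a ribosomal protein, was at 12.5, 12.3 and 12.1 CPM against 35.7 and 52.7 CPM, and its RIP values were almost the same in the 3 libraries (-1.84 ± 0.22, adjusted p 0.00718). Ndufb1, an accessory subunit of complex I, was at 1.86, 4.04 and 2.07 CPM against 8.64 and 20.5 CPM (-2.47 ± 0.50), with Input values that differed from each other more than 2-fold. Ribosomal protein genes have many processed pseudogenes, so the split of their reads is uncertain.

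Zinc finger genes were looked at by chromosome after the lowest genes had been listed. Zfp genes mostly encode C2H2 zinc finger proteins, many of them with a KRAB domain that silences transposons, and stand in clusters of recent duplicates. Of 310 tested 38 were lower and 12 higher (12.3% lower), with a median of -0.43. On chromosome 17, 12 of 36 were lower and 0 higher (33.3%), with a median of -1.19, against 26 of 274 (9.49%) and -0.37 on the other chromosomes. Chromosome 17 was not alone: on chromosome 13 all 26 values were negative with a median of -1.14 and 3 lower, and the 5 genes of chromosome 10 had a median of -1.13 with 0 lower. The stretch from Zfp160 to Zfp40 (GRCm38 chromosome 17, 21008903 to 23193252) begins and ends with genes called lower in these same data. Its counts therefore describe it and are no test. Every CaMKIIβ RIP library was below both Input libraries for all 17 Zfp genes tested there, against 28.5% of all genes tested, and 9 passed the threshold. Their median was -1.905, against -1.75 in IgG RIP over Input, where 16 were lower. The other 16 tested genes of this stretch had a median of -1.51, with 5 lower and 0 higher. Zfp40 (ENSMUSG00000002617.14, GRCm38 chromosome 17, 23173869 to 23193252) was at 2.57, 3.98 and 6 CPM against 21.8 and 24.5 CPM, a change of -2.47 ± 0.37 (adjusted p 0.0116). Zfp51 (ENSMUSG00000023892.8, GRCm38 chromosome 17, 21450374 to 21465587) was at 1.01, 1.42 and 0.836 CPM against 9.69 and 7.52 CPM (-2.98 ± 0.46). Gm20008, a pseudogene in the same stretch, was at 2.53, 0.178 and 1.67 CPM against 14.4 and 13.6 CPM (-3.23 ± 0.77), and Gm7072 at 2.45, 3.86 and 3.44 CPM against 22.2 and 17.1 CPM (-2.601 ± 0.31). The other falling Zfp genes of the stretch were Zfp994, Zfp942, Zfp946, Zfp948, Zfp983, Zfp760 and Zfp160, from -2.34 to -1.16. These genes resemble each other in sequence, so reads may be split among them. The 12 rising Zfp genes lay on 8 other chromosomes and included Zfp777 at 1.17 ± 0.18, Zfp651 at 0.996 ± 0.14 and Zfp423 at 0.85 ± 0.15. Outside chromosome 17 the lowest called value was that of Zfp950, at 15.9, 6.82 and 21.9 CPM against 61.7 and 67.8 CPM (-2.12 ± 0.40). Without replicate 2 the counts were 68 lower and 37 higher of the list, and 17 lower on chromosome 17.

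**Figure D4:**
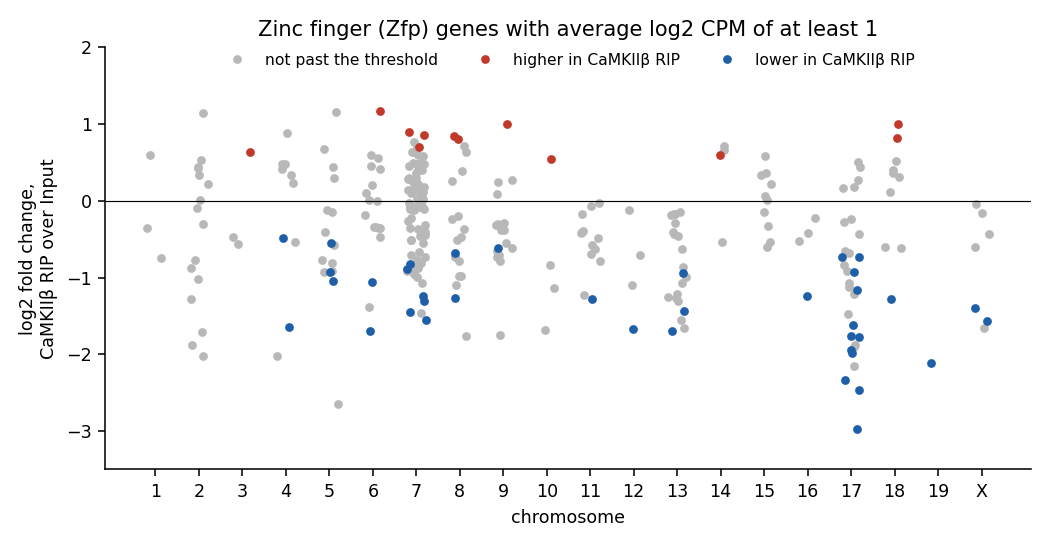
Log2 fold change of CaMKIIβ RIP over Input for the 286 Zfp genes whose average log2 CPM reached 1, by chromosome, with points spread sideways for legibility. On chromosome 17, 26 of 31 points lie below 0 and none of them is among the higher genes in red.

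Of 1289 long noncoding RNA genes tested 19 were lower (1.47%, under the 3.4% of all genes) and 1 higher (median -0.38). Of 14322 protein-coding genes 660 were lower (4.61%) and 1094 higher (median 0.01). Median average log2 CPM was 0.67 in the long noncoding and 4.47 in the protein-coding genes, so fewer counts stood behind the long noncoding values. Malat1 (ENSMUSG00000092341.3, GRCm38 chromosome 19, 5795690 to 5802672), a nuclear speckle RNA, was at 7504, 5786 and 11197 CPM in CaMKIIβ RIP and 21476 and 22826 CPM in Input, a change of -1.44 ± 0.24 (adjusted p 0.0161). Snhg11, a host gene of small nucleolar RNA, was at 722, 464 and 758 CPM against 1354 and 1419 CPM (-1.096 ± 0.20). Firre, Ftx, Rian, Meg3, Miat, Rmst and Tug1, known nuclear or imprinted transcripts, fell by 1.05 to 0.66 on the log2 scale among those past the threshold. Among less studied genes, 9630013A20Rik was at 1.9, 1.96 and 2.02 CPM against 9.85 and 8.4 CPM, a change of -2.22 ± 0.37 (adjusted p 0.0166). Cep83os, a transcript named for its place opposite Cep83, was at 9.53, 9.44 and 7.57 CPM against 21.4 and 22.04 CPM (-1.297 ± 0.23), and the strand setting of the counting is not given in the sources used here. The single higher long noncoding gene was B930095G15Rik (ENSMUSG00000085133.2, GRCm38 chromosome 14, 121248706 to 121253971), at 101, 109 and 119 CPM against 74.2 and 69.5 CPM (0.61 ± 0.13, adjusted p 0.033). Of 15 small nucleolar RNA host genes 1 was lower and 14 of 15 had negative values (median -0.96), and 10 were lower with IgG. Of 126 snoRNA, 90 snRNA and 124 miRNA genes 0 passed in either direction, at median average log2 CPM between -0.60 and -0.50, where few counts stood behind each value. Among 5245 genes without a RefSeq match 22 were higher and 67 lower, and the most abundant of the lowest was ENSMUSG00000071753.13 (GRCm38 chromosome X, 61116378 to 61203785), at 876, 143 and 622 CPM against 3981 and 3532 CPM (-2.78 ± 0.60).

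Genes of other kinds also stood among the lowest values. Gm45871, a predicted gene, was at 0.464, 1.19 and 0.0983 CPM against 7.01 and 7.48 CPM (-3.64 ± 0.87, adjusted p 0.0454), few counts in every RIP library. Ttc14, which encodes a protein with tetratricopeptide repeats, was at 44.7, 44.2 and 66.4 CPM against 166 and 183 CPM, a change of -1.76 ± 0.20 (adjusted p 0.00647). Cnpy1, a canopy family gene, was at 52.7, 59.1 and 63.02 CPM against 168 and 189 CPM, and all its RIP values lay far below Input (-1.62 ± 0.13, adjusted p 0.00321).

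Genes with more than 30 exon blocks were more often higher than those of any other bin. Among 14322 protein-coding genes tested, 239 of the 850 with more than 30 separate exon blocks were higher (28.1%) and 48 lower (5.65%), with a median log2 fold change of 0.34. In genes with 6 to 10 blocks 158 of 4050 were higher (3.9%) and 197 lower (4.86%), with a median of -0.09. Genes with many exons also had more counts, which makes a call easier. When average log2 CPM was at least 5 the shares were 37.5% higher and 7.02% lower above 30 blocks, against 10.5% and 8.4% with 6 to 10, the bin with the smallest share higher. The share did not go up bin by bin. It was 20.6% in single-block genes, 14.6% with 2 to 5 blocks, 13.7% with 11 to 20 and 21.8% with 21 to 30. Of the 1094 higher protein-coding genes 622 had 20 blocks or fewer. The median above 30 blocks was 0.45, 0.33 and 0.34 by library ratio in replicates 1, 2 and 3 in that subset, so all 3 libraries showed it, and it was 0.49 in IgG RIP over Input. Exon length alone gave another picture. With protein-coding genes in 10 bins, from the shortest to the longest, the share higher went from 0.209% to 17.3% and the share lower from 1.81% to 8.65%, while the median stayed between -0.13 and 0.07. In well counted genes the medians of the shortest and longest bin were 0.12 and 0.04. Across 14322 genes, which are not independent replicates, the Spearman correlation of the log2 fold change was 0.06 with exon length and 0.11 with the number of blocks.

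**Figure D5:**
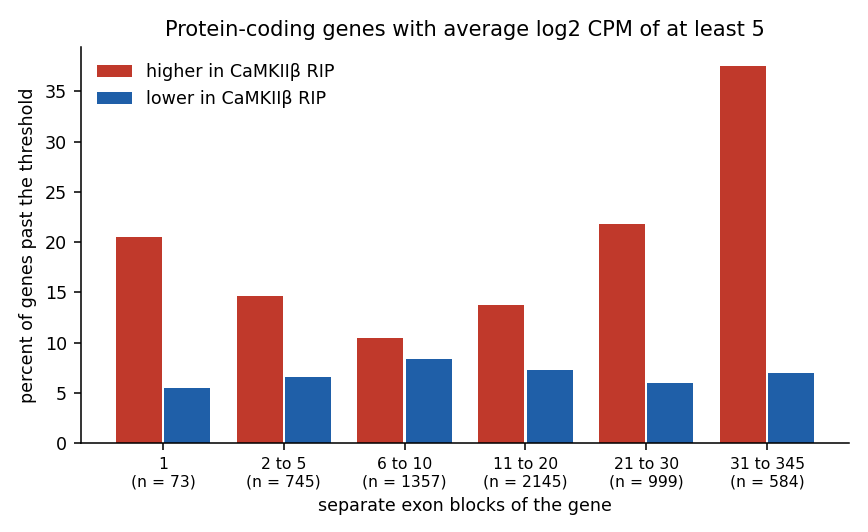
Percent of protein-coding genes past the threshold, higher (red) and lower (blue) in CaMKIIβ RIP than in Input, by the number of separate exon blocks, for genes whose average log2 CPM reached 5, the number of genes under each pair. The share higher is 20.6% in single-block genes, 10.5% at 6 to 10 blocks and 37.5% above 30, while the share lower stays between 5.48% and 8.4%.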

How the data were processed

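Counts per gene of mouse brain libraries were taken as the authors deposited them. The submitters' processing notes name Trim Galore 0.6.4, cutadapt 2.10, STAR 2.7.3a, featureCounts 2.0.1 and the build GRCm38.p6. The strand setting, the annotation release, and how duplicates and multiply mapped reads were handled are not given in the sources used here. Ensembl genes were named from RefSeq genes of GRCm38.p6 with a shared part of 0.5 or more of the joint span, which named 34132 of 55401 genes holding 96.2% of counts, and 0 columns were left without a sample.

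CaMKIIβ RIP (3 libraries) was fitted against Input (2 libraries) with edgeR 4.0.16 in R 4.3.3 by the quasi-likelihood F test, with robust dispersion, TMM scaling and filterByExpr (minimum count 10, minimum total 15). A gene was called at an adjusted p (Benjamini-Hochberg, all genes tested) under 0.05, and intervals are at 95%. IgG RIP against Input and CaMKIIβ RIP against IgG RIP were fitted in the same way. The code of the fit was tested on counts simulated with a smaller spread than the 0.477 of these data and without an outlying library. That test cannot show how the fit performs on libraries as uneven as these. Members and lists were chosen with earlier results of these data known, so list counts are descriptions. Named are the CaMKII subunits, the 12 highest and 12 lowest called genes with average log2 CPM of at least 1 and groups that did not overlap, the 8 highest and 8 lowest of at least 6, called long noncoding genes, and up to 5 members of a list with called members against its majority. Further members were named after their values were seen. Alternatives were scaling by RLE, upper quartile or library size, other count filters, DESeq2 1.42.0, limma-voom 3.58.1, a fit of all 8 libraries, a replicate block, a 2-fold limit, a name match of 0.8 and each library left out. Protein length was not analysed here. Some members of the lists, though counted, are not reported here by name. Tables used pandas 2.3.3 (Python 3.11.15) and figures matplotlib 3.10.9.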

Additional observations from a re-analysis of the deposited data

How the results depend on the processing

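Of 1117 higher and 751 lower genes, the counts moved by more than 1.5 times under these settings. DESeq2 called 2102 higher and 1346 lower, the fit of all 8 libraries 2070 and 1763, and library size scaling 683 and 1361. With no count filter 1854 were higher, and with limma-voom 1306 were lower. The limit of a 2-fold change left 288 higher and 376 lower. Leaving out 1 library gave 0 to 2471 higher and 0 to 1618 lower genes, with 0 in both directions without CaMKIIβ RIP replicate 1 and the most without replicate 2. Where 1 Input library was left, it was assumed to vary like the other libraries. The cause of these shifts was not tested. RLE and upper quartile scaling, the stricter count filter and the removal of CaMKIIβ RIP replicate 3 kept both counts within 1.5 times.

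The replicate number as a block gave 1986 higher and 2219 lower genes. Deviations from the group means correlated at 0.24 and 0.13 in libraries of number 1 and 2, only these 2 numbers occur in both groups, and the labels name no shared animal, so the pairing was not established.

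Signs turned only for genes that did not pass. Grin2a was at 0.0158 with no filter and from -0.158 to 0.101 with 1 library left out, and Gabrd from -0.0935 to 0.37 with 1 library left out, and among the libraries left out the sign turned only without CaMKIIβ RIP replicate 2. Of the 176 genes named, 12 had no call to lose. The other 164 all lost their call without CaMKIIβ RIP replicate 1, 27 did without replicate 3, and 19 did under library size scaling. Calls of named genes were also lost with either Input library left out, where a single Input library remained. Spread in CaMKIIβ RIP replicate 2 and few counts limit what can be said of rare transcripts.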
